A study of Mus musculus with 8 samples.

Results

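A stretch of 2.98 Mb on mouse chromosome 4 was filled with H3K27ac intervals in CD8+ T cells treated with EnPGC-1. It runs from 151860467 to 154839486 (mm10). All distinct intervals of both deposited peak lists that overlapped it were taken, 576 from the DMSO list and 1323 from the EnPGC-1 list, or 1899 of 334945 in all. Its limits are those of a run of EnPGC-1 intervals with no gap above 12.4 kb, whereas the gaps at its edges were 15.7 kb and 15.9 kb. Joined at that distance, the EnPGC-1 list formed 45424 runs, and this one ranked 2 by length and 2 by covered bases. The block was thus chosen by its EnPGC-1 intervals, and what follows describes it without a test. It holds only the start of Camta1, continues past Ajap1 and Prdm16, and ends just inside Ttc34.

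The cells, from spleen and lymph node of C57BL/6 mice, received CD3 and CD28 antibodies as stimulus, and had EnPGC-1, which the labels class among PIPs, or its vehicle DMSO for 48 h. All groups share that stimulation. Each treatment had 2 H3K27ac samples and 1 input, and DMSO also had 2 IgG samples, but 1 peak list stands for each treatment, so no spread between samples can be given. Depth per sample is unknown here, and the number and width of intervals depend on it. The part of depth in the differences below was not tested. Of 12 CD8 T cell marker genes, 6 had a DMSO interval within 1 kb of a start and 10 had an EnPGC-1 interval there, against 35.5% and 68.4% of all protein-coding genes. Cd3e, Cd8b1, Cd2, Lck and Zap70 were marked in both, Cd247 by DMSO alone and Cd3d in neither. Of 14 marker genes of other cells, 4 and 8 had one, among them the B cell gene Cd79a and the myeloid gene Csf1r in both lists.

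H3K27 acetylation is placed by histone acetyltransferases on nucleosomes beside active promoters and enhancers, and long runs of it are known from strongly regulated genes. A peak caller lists intervals where reads exceed a background, so a covered base states that such an interval was called there and not how strong the mark was. The block has 36 protein-coding genes, 25 lncRNA genes, 4 pseudogenes and 2 snoRNA genes. They include genes of neurons (Chd5, Kcnab2, Ajap1), of cilia (Nphp4), of lipid metabolism (Acot7), of brown fat identity (Prdm16) and of T cell costimulation (Tnfrsf25).

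Promoter sequence shows how differently the starts in this block were covered. The lines below give the 250 bases before the listed start of 5 genes, 5′ to 3′ on the gene's strand, from RefSeq on GRCm38.p6, whose coordinates equal those of mm10. Capitals mark CpG dinucleotides. Ajap1 (chr4:153482831-153483080, minus strand) and Acot7 (chr4:152185358-152185607, plus strand) are shown because neither list covered a base of them. Arhgef16 (chr4:154299896-154300145, minus strand) and Prdm16 (chr4:154636874-154637123, minus strand) were covered over 250 and 236 bases in the EnPGC-1 list and over 0 in the DMSO list. Tnfrsf25 (chr4:152115684-152115933, plus strand), chosen after its values were seen, was covered over all 250 bases in both lists.
Ajap1: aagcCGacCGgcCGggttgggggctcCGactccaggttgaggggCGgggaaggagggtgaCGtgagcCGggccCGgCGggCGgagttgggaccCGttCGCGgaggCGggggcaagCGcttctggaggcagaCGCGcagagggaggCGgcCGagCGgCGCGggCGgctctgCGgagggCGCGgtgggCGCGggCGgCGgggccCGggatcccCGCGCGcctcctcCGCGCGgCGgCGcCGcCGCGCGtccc
Acot7: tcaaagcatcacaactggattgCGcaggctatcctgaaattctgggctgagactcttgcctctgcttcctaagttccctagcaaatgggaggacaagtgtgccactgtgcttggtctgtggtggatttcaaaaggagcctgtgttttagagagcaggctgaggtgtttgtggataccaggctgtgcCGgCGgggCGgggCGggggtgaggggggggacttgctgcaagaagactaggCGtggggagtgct
Arhgef16: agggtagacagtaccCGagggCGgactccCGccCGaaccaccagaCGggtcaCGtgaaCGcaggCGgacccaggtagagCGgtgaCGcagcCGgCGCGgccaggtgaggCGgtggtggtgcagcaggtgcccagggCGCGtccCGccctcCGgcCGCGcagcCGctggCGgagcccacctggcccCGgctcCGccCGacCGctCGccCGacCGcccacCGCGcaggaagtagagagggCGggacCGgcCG
Prdm16: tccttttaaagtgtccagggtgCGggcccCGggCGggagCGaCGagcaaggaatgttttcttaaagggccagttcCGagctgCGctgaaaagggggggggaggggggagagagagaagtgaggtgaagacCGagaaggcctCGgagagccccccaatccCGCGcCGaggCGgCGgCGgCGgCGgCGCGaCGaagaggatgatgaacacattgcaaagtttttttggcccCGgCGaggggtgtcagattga
Tnfrsf25: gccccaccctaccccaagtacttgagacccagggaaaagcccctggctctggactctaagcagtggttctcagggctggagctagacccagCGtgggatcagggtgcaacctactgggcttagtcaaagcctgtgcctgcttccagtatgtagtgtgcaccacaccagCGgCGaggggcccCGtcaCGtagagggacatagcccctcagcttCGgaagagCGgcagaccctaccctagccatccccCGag

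These windows held 43 CpG dinucleotides for Ajap1, 34 for Arhgef16, 22 for Prdm16, 8 for Tnfrsf25 and 6 for Acot7. The window richest in CpG was therefore among those without an interval. The windows of the landmark genes Camta1 and Chd5, also reached by neither list and not printed, held 18 and 21.

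Over the whole block, EnPGC-1 intervals covered 1210.8 kb (40.6%) and DMSO intervals 336.7 kb (11.3%). Across the genome the lists covered 6.43% and 1.61%, and over chromosome 4 they covered 8.72% and 2.25%. The block was dense in both lists, 6.32 times the genome level in the EnPGC-1 list and 7.04 times in the DMSO list. It held 0.733% of all EnPGC-1 covered bases and 0.816% of all DMSO covered bases. Cut into 851 windows of the block's length, the genome had 2 with more EnPGC-1 bases and 1 with more DMSO bases. With all intervals, the excess of EnPGC-1 over DMSO was smaller here than over the whole lists, but for covered bases this order turned with the choice of scores. The ratio of covered bases was 3.60 in the block and 4.00 over the whole lists, and the ratio of intervals was 2.30 and 3.11. In 729 of the 851 windows the ratio of covered bases was larger than in the block. With both lists cut to their 81522 highest-scoring intervals, the block held 476 EnPGC-1 and 576 DMSO intervals, a ratio of 0.826, while EnPGC-1 intervals still covered 1.80 times as many bases, against 1.65 times over the whole lists. With scores at or above each list's median the ratio of covered bases was 3.73 in the block and 3.66 over the whole lists. The cut to equal numbers makes the whole-list ratio of intervals 1 and shortens the EnPGC-1 list only, to scores from 4.21 up.

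The intervals of the block were wider than usual in their lists, while their scores lay near the middle of each list. The score, read as −log10 of a q-value, can be ranked only within 1 list. Median width was 693 bp (quartiles 442 and 1186) in the EnPGC-1 list and 484 bp (366 and 674) in the DMSO list, against 499 bp and 431 bp over the whole lists. The median score was 3.69 against 3.64 of the whole list for EnPGC-1, and 2.16 against 2.16 for DMSO. As percent ranks within the list these medians were 53.9 against 49.7 for EnPGC-1, and 46.2 in both cases for DMSO. The highest score of the block was 11.5 for EnPGC-1 and 8.19 for DMSO, while the highest of the lists were 541 and 179. Of the EnPGC-1 intervals, 8.39% ranked in the top 10% of their list, and of the DMSO intervals 6.60%. Because of ties, that top share holds 9.0% of the whole EnPGC-1 list and 9.5% of the whole DMSO list. What fills the block is therefore many intervals of ordinary score at short distance: the median gap was 904 bp in the EnPGC-1 list and 3005 bp in the DMSO list.

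Most DMSO intervals of the block met an EnPGC-1 interval. Of 576, 514 overlapped one by at least 1 bp (89.2%, exact binomial interval at 95% 86.4 to 91.6, counting error only), and 62 did not (10.8%, against 26.3% of all DMSO intervals). Of the 1323 EnPGC-1 intervals, 832 overlapped no DMSO interval (62.9%, 60.2 to 65.5), against 76.9% of all EnPGC-1 intervals. The EnPGC-1 list also covered more of the block than of the genome, which makes an overlap more frequent at any placement. Its part in these shares was not tested. With an overlap of at least 50% of both intervals, the shares of DMSO and EnPGC-1 intervals that met one were 28.6% and 12.5%. That rule also drops a DMSO interval inside a much wider EnPGC-1 interval: of the 514 shared DMSO intervals, 254 (49.4%) lay wholly inside an EnPGC-1 interval, against 41.0% over the whole list. With equal numbers of highest-scoring intervals they were 46.0% and 49.2% in the block, and 31.4% and 29.0% over the whole lists.

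Intervals found in the DMSO list alone usually lay beside an EnPGC-1 interval. The median distance of the 62 to the nearest EnPGC-1 interval was 456 bp and the largest 2872 bp, and 52 lay within 1 kb. Over the whole DMSO list the median of such intervals was 1371 bp and 41.8% lay within 1 kb. The choice of the block as a run without EnPGC-1 gaps above 12.4 kb limits these distances at any placement. The comparison with the whole list therefore cannot show a placement particular to the block. Shared EnPGC-1 intervals had a median width of 1041 bp and those alone 576 bp, and a wider interval meets another more easily. There were 41 EnPGC-1 intervals that joined 2 or more DMSO intervals, and 6 that joined 3. These were 8.35% of the shared EnPGC-1 intervals, against 4.76% over the whole list.

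In bins of 50 kb counted from the start of the block, every one of the 60 bins held intervals of both lists, and all 60 had more EnPGC-1 bases. Over the genome 80.5% of bins had more EnPGC-1 bases, 4.0% had more DMSO bases, and 32.5% had EnPGC-1 bases and no DMSO base. Of the 51391 genome bins, 7937 held neither list. The choice of the block as a run without EnPGC-1 gaps above 12.4 kb leaves no bin of full size without EnPGC-1 bases, and so favours its counts. Bins of the block ranged from 6785 to 33360 covered bases in the EnPGC-1 list (median 18751) and from 933 to 12569 in the DMSO list (median 5239.5). The genome medians were 1166 and 302. Of 59 bins of full size, 58 exceeded the genome's 90th percentile of EnPGC-1 bases and 51 that of DMSO bases. The lists rose and fell together along the block, with Pearson's r of 0.83 and a Spearman rank correlation of 0.85 over those 59 bins. Neighbouring bins are not independent and share gene density, and over 51391 genome bins the values were 0.89 and 0.77.

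**Figure D1:**
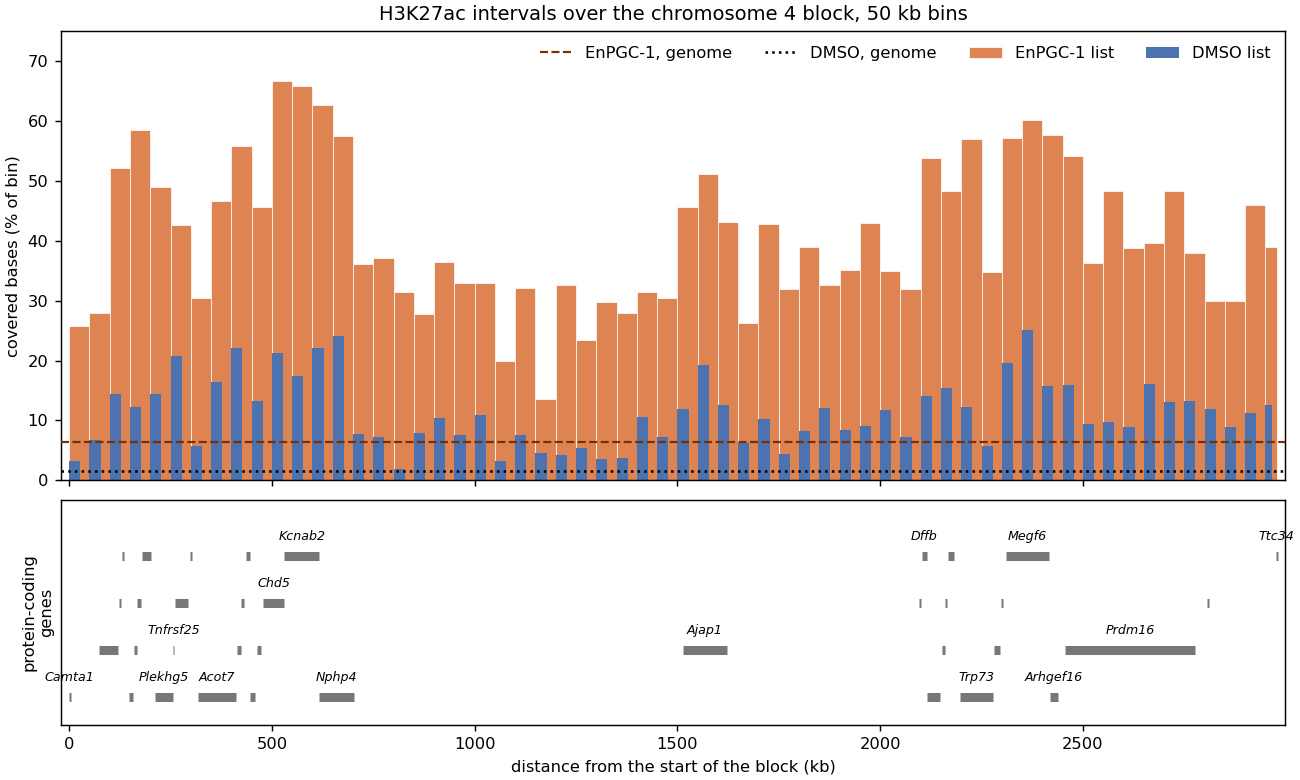
Covered bases as a percent of each 50 kb bin (upper panel, narrow DMSO bars drawn in front of EnPGC-1 bars, broken lines for the genome level of each list) and protein-coding genes (lower panel) against distance from the start of the block in kb. EnPGC-1 coverage lies above DMSO coverage in all 60 bins, peaks at 66.7% over Chd5 and Kcnab2, and dips to 13.6% between Nphp4 and Ajap1.

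Bins over genes were the fullest. The 3 with the most EnPGC-1 bases were neighbours over Chd5, Kcnab2 and the start of Nphp4, with 33360, 32894 and 31360 bases. In the DMSO list they held 10647, 8711 and 11033 bases. Of the bins of full size, the 3 with the fewest EnPGC-1 bases all lay between Nphp4 and Ajap1, where no protein-coding gene is listed, with 6785, 9997 and 11720 bases. In the DMSO list they held 2315, 1628 and 2705 bases. The shortened last bin at Ttc34 had 11316 and 3629 bases. The 35 bins that touch a protein-coding gene had a median of 24144 EnPGC-1 and 6663 DMSO bases, and the 25 others 16047 and 3774. The ratio of EnPGC-1 to DMSO bases went from 2.06 in the bin of Plekhg5, Tnfrsf25, Espn and Hes2 to 16.8 in a bin past Nphp4, and was higher without genes (median 4.19) than with them (3.46).

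The stretch of 702.7 kb from the start of Camta1 to Nphp4 holds 21 genes and was the better filled end. EnPGC-1 intervals covered 49.2% of it and DMSO intervals 15.3%. Of its 172 DMSO intervals, 90.7% (85.3 to 94.6) met an EnPGC-1 interval, and of its 326 EnPGC-1 intervals 42.9% (37.5 to 48.5) met a DMSO interval. The longest DMSO run of the block lay here. Joined at the same distance that makes the EnPGC-1 block 1 run, the DMSO list fell into 39 runs, and the longest reached over 370.9 kb from 152201157 to 152572029, from inside Acot7 to just past Nphp4. In the whole genome 1 DMSO run was longer.

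The 810.0 kb between Nphp4 and Ajap1 have no protein-coding gene and were the thinnest stretch. DMSO intervals covered 6.53% and EnPGC-1 intervals 29.7%, a ratio of 4.54. The number of EnPGC-1 intervals per 100 kb was nearly that of the gene-rich stretch, 40.6 against 46.4, whereas that of DMSO intervals was 11.7 against 24.5. The choice of the block as a run without EnPGC-1 gaps above 12.4 kb keeps EnPGC-1 intervals from becoming sparse here. It sets no such limit on DMSO intervals, so this contrast is partly fixed by the selection. Of the 329 EnPGC-1 intervals, 23.7% (19.2 to 28.7, counting error only) met a DMSO interval, against 23.1% of the whole list. Of the 95 DMSO intervals, 77.9% (68.2 to 85.8) met an EnPGC-1 interval, against 73.7% of the whole list. The median EnPGC-1 width was 590 bp here and 788.5 bp in the gene-rich stretch. Narrower intervals and lower coverage make an overlap less frequent at any placement, and their part was not tested.

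Long DMSO-free gaps were mostly in such stretches. The DMSO list had 10 gaps over 20 kb in the block, 9 of them outside protein-coding genes and 1 over the listed start of Acot7. Together they span 252.9 kb, and the EnPGC-1 list had 103 intervals in them. EnPGC-1 coverage of these gaps ranged from 14.7% to 34.2% with a median of 26.5%. The longest, of 36.4 kb from 152652519 to 152688929, held 17 EnPGC-1 intervals. The EnPGC-1 list had 0 gaps over 20 kb, which its selection fixes, and its longest, of 12.4 kb from 152915333 to 152927772, held 1 DMSO interval.

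Farther along, coverage rose at each group of genes. Over Ajap1 it was 51.2% for EnPGC-1 and 16.2% for DMSO, and in the 473.4 kb without a protein-coding gene that follow it was 35.2% and 8.62%. From A430005L14Rik to Tprgl, which holds 9 genes, it was 47.9% and 11.7%. From Megf6 to Prdm16 it was 48.5% and 15.0%, and in the 202.1 kb past Prdm16 it was 36% and 11.3%. The 1 Mb on each side of the block was still well covered, with 33.9% before and 32.4% after it in the EnPGC-1 list and 7.65% and 8.11% in the DMSO list. Coverage on both sides of the block thus stayed above the genome level.

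**Figure D2:**
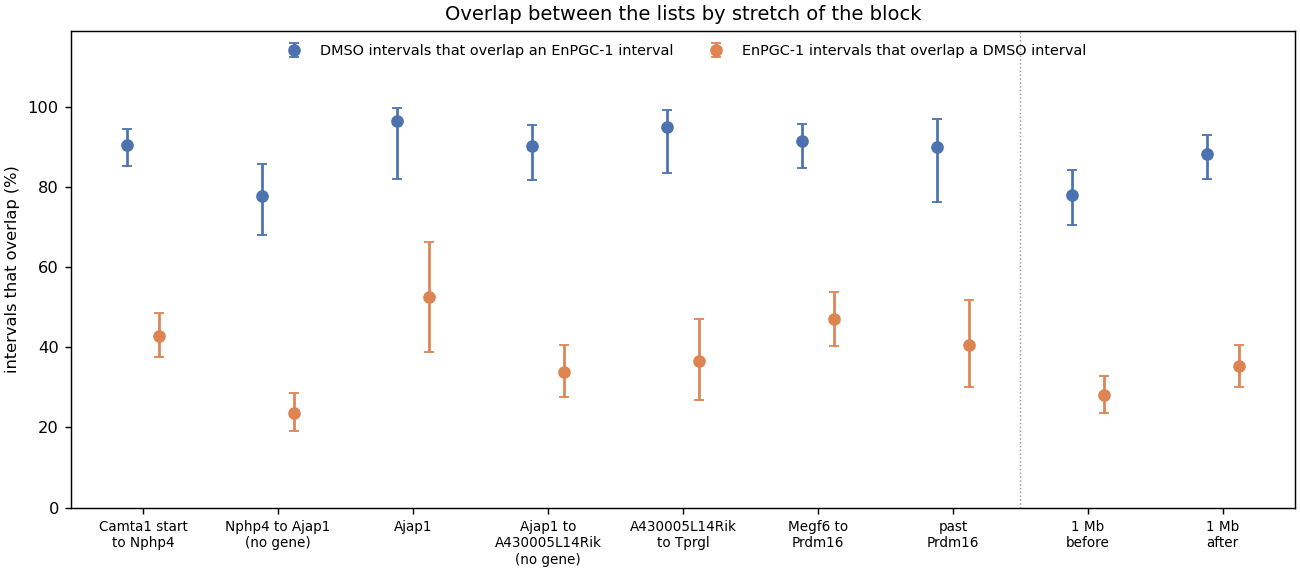
Percent of intervals that overlap an interval of the other list, with exact 95% binomial intervals, for 7 stretches of the block and the 1 Mb on each side (right of the dotted line). The stretch between Nphp4 and Ajap1 has the lowest shares of the block, 77.9% of DMSO and 23.7% of EnPGC-1 intervals.

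Few intervals of the block lay within 1 kb of a gene start. In the DMSO list 31 of 576 did (5.38%, against 10.3% of the whole list), and in the EnPGC-1 list 65 of 1323 (4.91%, against 7.89%). Of the EnPGC-1 intervals 43.7% lay elsewhere inside protein-coding genes and 51.4% outside them, against 50.2% and 41.9% of the whole list. For the DMSO list these were 54.3% and 40.3%, against 54.2% and 35.5%. Of EnPGC-1 intervals without a DMSO partner 58.5% were outside genes, and of those with a partner 39.3%. Over the whole EnPGC-1 list these shares differed in the same direction, at 44.5% and 33.2%.

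Each of the 36 protein-coding genes had an EnPGC-1 interval near a start, and 20 of them also had a DMSO interval there (55.6%, against 32.5% of 21631 genes in the genome). In the EnPGC-1 list alone were 16 (44.4%, against 35.9%). In the DMSO list alone were 0 (against 2.95%) and in neither list 0 (against 28.6%). The choice of the block by its EnPGC-1 intervals favours EnPGC-1 marks at its genes and so lowers both of these counts. For 6 genes, among them Dnajc11, Zbtb48, Hes2, Hes3 and Rnf207, the reference gives no start, so either gene end was used. Among the 30 with a listed start, 16 were marked in both lists and 14 by EnPGC-1 alone. The size of the window matters for the DMSO list: with 2500 bp on each side, 29 genes were marked in both and 7 in the EnPGC-1 list alone. When the lists were cut to the same size by score, 10 genes had a mark near a start from EnPGC-1 alone and 5 from DMSO alone.

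The gene starts themselves were not where DMSO intervals gathered. The 30 genes have 44 listed starts, some only bases apart. The exact start base was covered at 3 of them in the DMSO list (6.82%) and at 24 in the EnPGC-1 list (54.5%). Over 21045 starts of the genome these shares were 13.5% and 38.6%, and both lists peaked there within 200 bp downstream. In the block the EnPGC-1 list was highest 200 bp downstream, at 65.9% of starts, and nearly as high 3550 bp downstream, at 63.6%. The DMSO list was highest at 3400 and 3350 bp upstream and at 2150 bp downstream, where it covered 11 of the 44. Starts that lie close together can be met by the same interval, so the 44 are not independent. The places of these maxima rest on few starts and were not tested.

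**Figure D3:**
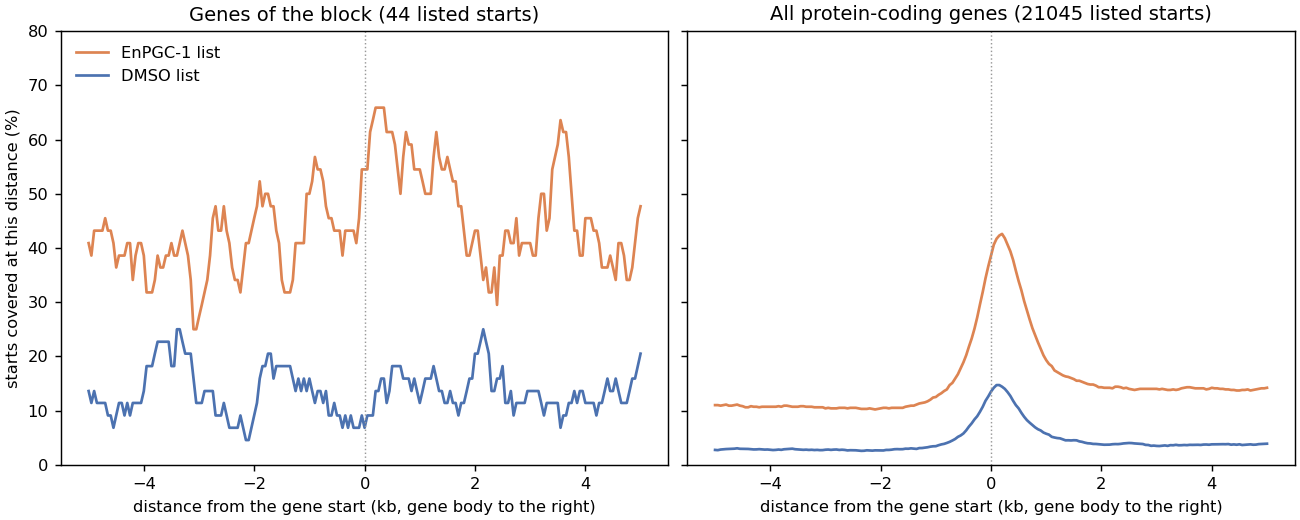
Percent of listed gene starts covered by each list in steps of 50 bp from 5 kb upstream to 5 kb downstream, for the block (left, 44 starts) and all protein-coding genes (right, 21045 starts). The genome curves of both lists peak at the start. In the block the EnPGC-1 curve reaches 65.9% near the start and 63.6% again 3550 bp downstream, and the DMSO curve shows no peak at the start.

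Camta1, which encodes a calmodulin-binding transcription activator, enters the block with its start alone. It lies on the minus strand from 151059523 to 151861768. No DMSO interval lay within 3 kb of its start. The EnPGC-1 list had an interval from 807 to 1220 bp upstream with a score of 8.98, another from 1872 bp to 2419 bp upstream, and the first interval of the block from 1011 to 1301 bp downstream. Over the whole gene, nearly all of it outside the block, DMSO intervals covered 8.52% and EnPGC-1 intervals 36.4%.

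Acot7, the gene of an acyl-CoA thioesterase that cleaves long-chain fatty acyl-CoA, runs over 93.8 kb from 152178100 to 152271855. It held 16 DMSO and 42 EnPGC-1 intervals, 27 of the latter without a DMSO partner, which covered 13.6% and 46.1% of the gene. Its listed start had an EnPGC-1 interval from 92 to 1059 bp downstream and no DMSO interval within 3 kb. That start lies in a DMSO-free gap of 21.2 kb in which the EnPGC-1 list had 9 intervals. The listed start is, however, inside the gene and not at its annotated upstream end. Near that end a DMSO interval from 152178719 to 152179998 overlapped an EnPGC-1 interval from 152178370 to 152179901. By the rule for genes without a listed start, Acot7 would be marked in both lists.

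Chd5, a chromatin remodeller gene best known from neurons, runs from 152338646 to 152390194 and was marked near its starts in both lists by intervals that only reach into the window. The DMSO interval began 896 bp and the EnPGC-1 interval 988 bp downstream of the first of its starts, which lie a few bases apart. Within the gene there were 16 DMSO and 28 EnPGC-1 intervals, covering 17.4% and 59.9%. All 16 DMSO intervals had a partner, and 14 EnPGC-1 intervals had none, among them 1 from 152384821 to 152385955 with a score of 9.06.

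Ajap1, whose product binds adherens junction proteins, runs from 153373221 to 153483795 and stands alone between the gene-free stretches. It held 29 DMSO and 55 EnPGC-1 intervals, and 28 of the 29 had a partner. Coverage was 16.2% and 51.2%. The CpG-rich start shown above had no DMSO interval within 1 kb. Just outside that window a DMSO interval lay from 1162 to 1635 bp upstream. It overlapped an EnPGC-1 interval from 1535 to 1830 bp upstream. The nearest EnPGC-1 interval lay inside the gene, 818 to 1798 bp downstream, and 2 intervals of 3376 and 4581 bp lay deeper in the gene.

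Megf6, which encodes a protein with many EGF-like repeats, runs from 154170704 to 154275721 and was among the fullest of the long genes. Its 36 DMSO intervals covered 23.1% and its 52 EnPGC-1 intervals 62.6%. EnPGC-1 intervals flanked its start closely, from 203 to 1979 bp upstream and from 116 to 1558 bp downstream. The nearest DMSO interval began 1057 bp downstream, just outside the window of 1 kb, so whether it counts as near the start rests on that limit.

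Prdm16, the transcriptional regulator gene known for brown fat identity, is the longest gene that lies wholly in the block, 321.2 kb from 154316122 to 154637360. Inside it lay 71 DMSO and 151 EnPGC-1 intervals, and 87 of the latter had no partner. They covered 38613 and 141061 bases, or 12% and 43.9% of the gene. An EnPGC-1 interval lay from 15 to 397 bp before its start. The DMSO interval that marks it reached within 983 bp upstream, 18 bases inside the window.

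Coverage over whole genes was high in both lists, with a median of 16.0% of gene length under DMSO intervals and 53.6% under EnPGC-1 intervals. The genome medians were 1.28% and 9.40%. The choice of the block by its EnPGC-1 intervals favours high EnPGC-1 shares and the counts that follow. Of the 36 genes, 35 had more EnPGC-1 than DMSO bases (against 79.3% of all genes), and 23 exceeded the genome's 90th percentile of 50.4% in the EnPGC-1 list. The exception was Actrt2, an actin-related gene of 1.4 kb, with 1162 DMSO and 906 EnPGC-1 bases. Klhl21, which encodes an adaptor of a ubiquitin ligase, had the highest EnPGC-1 share, 90.6% against 32.6%, from 2 EnPGC-1 intervals. Dffb, the gene of the caspase-activated DNase, and Tprgl had 0 DMSO bases and 6176 and 1785 EnPGC-1 bases. At Phf13, which encodes a PHD-finger protein, 108 DMSO and 3358 EnPGC-1 bases were covered.

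**Figure D4:**
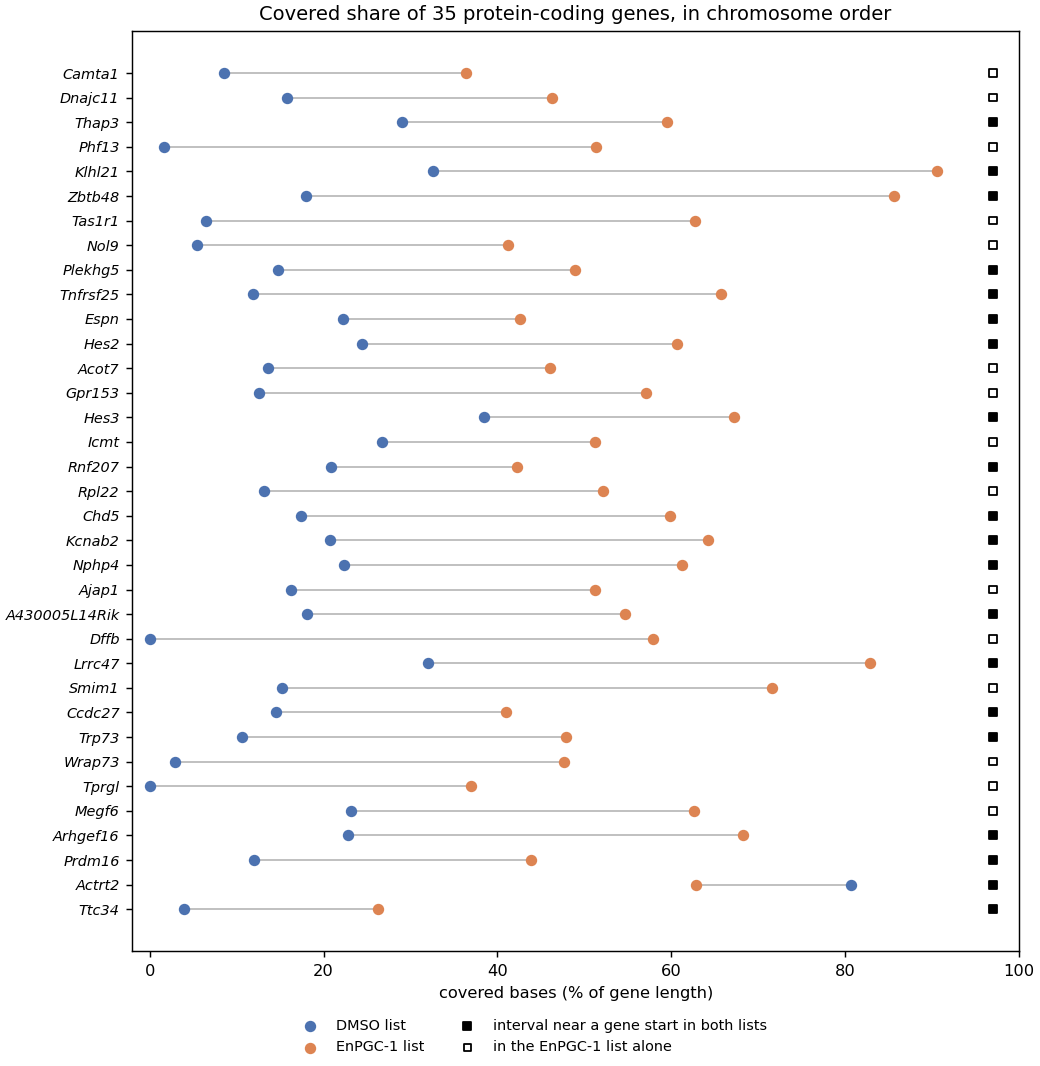
Covered bases as a percent of gene length for 35 of the 36 protein-coding genes in chromosome order, blue for DMSO and orange for EnPGC-1, with squares at the right for an interval near a gene start in both lists (filled, 20 genes) or in the EnPGC-1 list alone (open, 15 genes). Values are over the whole gene, also for Camta1 and Ttc34, which reach out of the block. Of the genes drawn, only Actrt2 has a larger DMSO share.

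By known role, every group of genes had EnPGC-1 marks near its starts, as all genes of the block did. The counts of each group stand beside 55.6% marked in both lists and 44.4% by EnPGC-1 alone among the block's genes, and 32.5% and 35.9% among all protein-coding genes. The groups are small and overlap in membership, and differences between them were not tested. Of 10 genes of chromatin and transcription, 8 were marked in both lists, 3 of them (Zbtb48, Hes2 and Hes3) at either gene end for want of a listed start. Trp73, a transcription factor gene of the Trp53 family, had 8871 DMSO and 40070 EnPGC-1 bases. The group's medians were 2711.5 and 7365 bases, close to the 2540.5 and 7374 of all genes of the block, against 419 and 1824 over all protein-coding genes. Of 7 ciliary and cytoskeletal genes, 5 were marked in both. Nphp4, whose product sits at the base of cilia, had 19290 and 52911 bases, and Arhgef16 and Espn had 14760 and 13675 in the EnPGC-1 list.

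Of 9 genes listed as neural, 5 were marked in both lists and 4 in the EnPGC-1 list alone, the same shares as among the block's genes. Kcnab2, a potassium channel subunit gene, was covered over 20.7% and 64.2%, and its upstream start lies beside that of Nphp4 on the other strand. The DMSO interval with the block's highest score, 8.19, lay there from 152476612 to 152477069, inside an EnPGC-1 interval of 2698 bp. The annotated ends of these genes overlap, and intervals there count for both. The neural list also holds Actrt2 and Ttc34, for which no neural role is claimed here.

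Of 5 genes listed as lipid, mitochondrial and metabolic, 4 had a mark near a start from EnPGC-1 alone, namely Acot7, Dnajc11, Nol9 and Icmt, and Prdm16 had both. Nol9 is also in the ribosomal list, which fits its known role better, and Dnajc11 has no listed start. The listed start of Acot7 lies inside the gene, and both lists had an interval near its annotated upstream end. Dnajc11, which encodes a mitochondrial J-domain protein, had 7638 DMSO and 22348 EnPGC-1 bases over the gene. Nol9, the gene of a nucleolar kinase of ribosomal RNA processing, had 1202 and 9161. At Icmt, a methyltransferase gene of prenylated proteins, 6 DMSO intervals lay in the gene, the nearest 1012 bp downstream of the start and so just beyond the window.

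Of 6 ribosomal and housekeeping genes, 2 were marked in both lists, Thap3 and Lrrc47, and 4 in the EnPGC-1 list alone. Rpl22, a ribosomal protein gene that T cell development is known to need, had 1277 DMSO and 5027 EnPGC-1 bases. Its 2 starts had EnPGC-1 intervals across them, from 89 bp upstream to 719 bp downstream of the first and from 88 bp upstream to 573 bp downstream of the second. Of 4 genes of death receptor signalling and apoptosis, Tnfrsf25 and Trp73 were marked in both lists, and Dffb and Tprgl in the EnPGC-1 list alone. Tprgl is better known from synapses. For the receptor genes Tas1r1 and Gpr153 EnPGC-1 alone gave a mark.

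Tnfrsf25, the death receptor gene through which T cells receive costimulation, had its first start crossed by intervals of both lists. The DMSO list had an interval from 295 bp upstream to 244 bp downstream of the first start, with a score of 1.36 near the lower limit. The EnPGC-1 list had one of 2754 bp from 842 bp upstream to 1911 bp downstream, with a score of 3.69. Over the gene the covered bases were 546 and 3016.

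A430005L14Rik was the only listed start of the block whose 250 bases were reached by the DMSO list alone. There a DMSO interval ran from 156 bp upstream to 848 bp downstream, and the EnPGC-1 interval inside it began 345 bp downstream. This promoter window held 33 CpG dinucleotides.

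The block held many wide EnPGC-1 intervals, and those of 3 kb or more mostly touched genes. There were 96 of 2 kb or more (7.26%, against 2.30% of the whole list) and 0 in the DMSO list, where the widest had 1970 bp inside Nphp4. Of 19 EnPGC-1 intervals of 3 kb or more, 17 touched a protein-coding gene, 5 came within 1 kb of a start, and 18 overlapped a DMSO interval. Of all EnPGC-1 intervals of the block, 51.4% lay outside genes and away from starts, 4.91% came near a start, and 37.1% overlapped a DMSO interval. A wide interval meets a gene, a start or another interval more easily, and the part of width was not tested. The widest, of 6353 bp with 11 deposited entries, lay in Arhgef16, the gene of a guanine nucleotide exchange factor, from 154280086 to 154286438. The next were 5959 bp over the start of Klhl21, which covered 3 DMSO intervals, and 5064 bp at Zbtb48, the gene of a telomere-binding zinc finger protein. Several deposited entries were listed for 36.4% of the block's EnPGC-1 intervals and 5.21% of its DMSO intervals, against 20.7% and 3.42% over the lists.

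The highest-scoring intervals lay both inside and outside genes. In the EnPGC-1 list they included 1 between Prdm16 and Ttc34 (154697747 to 154698888, score 11.5, shared), 1 upstream of Camta1 (151882222 to 151882627, score 9.82, alone) and 1 upstream of Plekhg5 (152067663 to 152068783, score 9.82, shared). The score of 9.82 was shared by 5 intervals, and the other 3 lay at a start of Kcnab2, in Megf6 and in Arhgef16, the last being the widest interval. In the DMSO list, after the interval at the start of Nphp4, they were 1 between Camta1 and Dnajc11 (151908748 to 151909080, score 5.11, alone) and 1 inside Nphp4 (152534016 to 152534764, score 5.11, shared).

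All 25 lncRNA genes overlapped an EnPGC-1 interval, against 69.8% of 12697 in the genome, and the choice of the block as a run without long EnPGC-1 gaps favours this. A DMSO interval was overlapped by 14 of them, against 36.6%. In the gene-free stretch between Nphp4 and Ajap1, Gm30734, Gm833 and Gm30911 had EnPGC-1 bases alone (1095, 1033 and 1488), while Gm30851 had 654 DMSO and 1467 EnPGC-1 bases and Gm31055 had 1672 and 3447. All were chosen after their values were seen.

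Promoter windows of the block without an interval had a high median of CpG but a wide range. Of 44 windows of 250 bases before a listed start, 5 were reached by both lists (11.4%, against 11.3% of all genome windows). The EnPGC-1 list alone reached 23 (52.3%, against 32.3%) and the DMSO list alone 1 (2.27%, against 5.13%). Neither list reached 15 (34.1%, against 51.3%). The 15, from 12 genes, had a median of 21 CpG dinucleotides and the 23 a median of 12. Over all 21045 windows of the genome the order was the other way, with a median of 5 where neither list reached and 13 where the EnPGC-1 list alone did. The window shown for Ajap1 is at the upper end, with 43, and Icmt, Plekhg5 and Gpr153 had uncovered windows with 40, 37 and 36. At the lower end, 4 of the 15 held fewer than 10, with 0 for Actrt2, 3 for Espn and 6 each for Acot7 and Trp73. Alternative starts of Plekhg5, Chd5 and Nol9 overlap and count more than once. GC content was 62.2% in the median window of the block and 55.6% in that of the genome.

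**Figure D5:**
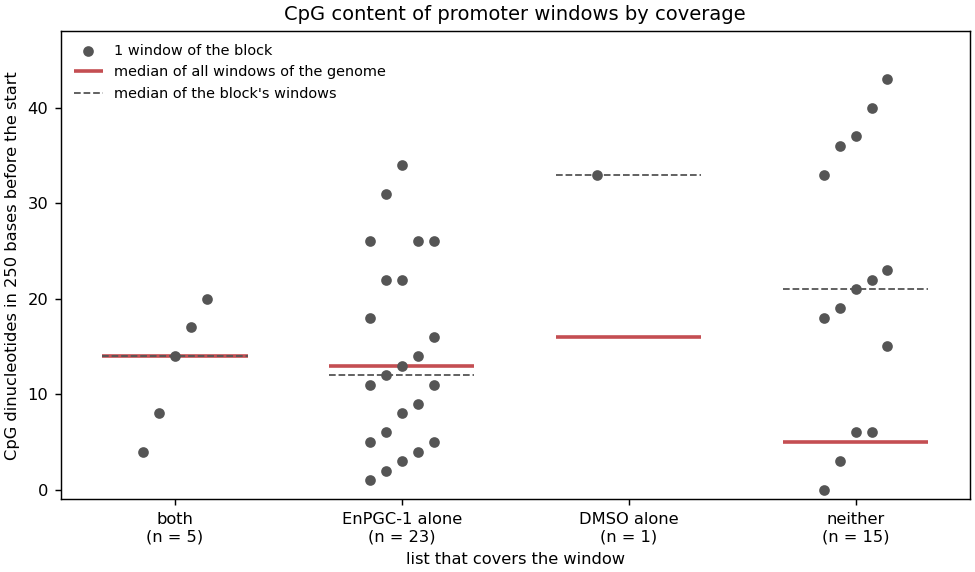
CpG dinucleotides in the 250 bases before each of 44 listed starts of the block (points), by which list reached the window, with the block median (broken line) and the median of all genome windows of that kind (red line). The 15 windows that neither list reached have a median of 21 in the block and 5 in the genome.

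Short motifs of factors known from T cells were searched on both strands of these windows. TGANTCA, the AP-1 letters, was in 3 of 44 windows (6.82%, against 6.17% of all windows). TGTGGT, the RUNX letters, was in 4 (9.09%, against 12.2%), and CACGTG, an E-box, in 2 (4.55%, against 6.70%). GGAAGT, an ETS core, was in 13 (29.5%, against 20.5%). Of the 23 windows that the EnPGC-1 list alone reached, 9 held it (39.1%, against 20.8% of all such windows). Over the genome it was in 21.6% of windows reached by both lists and in 19.9% of those reached by neither. The windows shown hold TGTGGT for Acot7 and Tnfrsf25, and both GGAAGT and CACGTG for Arhgef16. None of the 4 motifs was in the windows of Ajap1 and Prdm16. The motifs do not contain one another.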

How the data were processed

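H3K27ac ChIP-seq peak lists of DMSO- and EnPGC-1-treated mouse CD8+ T cells were used, 1 per treatment, and samples were grouped by the treatment and antibody in their titles. Per the submitters' processing notes, the build was mm10, and MACS2 was named along with Bowtie 1.1.2, Trimmomatic 0.38, Picard and ChIPseeker. Caller settings, control and pooling were not given in the sources used here, and nothing in them says that samples came from separate animals. The deposited score was read as −log10 of a q-value from its values: the lowest was 1.31 in both lists, and −log10 of 0.05 is 1.30.

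Entries that repeat an interval were combined with their highest score, which left 81522 of 84538 DMSO and 253423 of 329623 EnPGC-1 entries. Coordinates are 1-based. Genes were 21631 protein-coding genes of RefSeq GRCm38.p6, 17274 of them with a start in the RefSeq promoter table. For the others either gene end was used. Genome bins and windows were laid from the first to the last interval of each of 20 chromosomes. Python 3.11.15, pandas 2.3.3 and scipy 1.17.1 were used. Covered bases and overlaps were tested on 200 simulated lists against a base-by-base count and differed in 0.

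The members and gene lists were chosen with earlier results of these data known. Named were 6 genes at the landmarks of the block, up to 4 members of each gene group with the most covered bases, and the widest and highest-scoring intervals and bins. Others, such as Actrt2, Phf13, Klhl21 and A430005L14Rik, were chosen after their values were seen. Up to 8 promoter windows were to be shown by the same rule, of which 4 are printed. Other settings tried were a stricter score, lists of equal size, joining, a minimum width, other overlaps, windows and bins, and intervals wholly inside the block. Leaving out genes without a listed start was added after seeing the data. The values of 1 gene of the block are not reported here, though it is part of the counts.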

Additional observations from a re-analysis of the deposited data

How the results depend on the processing

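No paired analysis was possible because each treatment has 1 peak list and the result comes from no test. For the same reason no sample could be left out. Each alternative below changed 1 choice. When both lists were cut to the same number of highest-scoring intervals, the ratio of intervals turned, at 0.826, the ratio of covered bases was 1.80 (1.65 over the whole lists, so the order of block and lists turned too), the overlapping shares were 46.0% of DMSO and 49.2% of EnPGC-1 intervals, and 10 and 5 genes were marked near a start in the EnPGC-1 or DMSO list alone. With scores at or above each list's median that order also turned (3.73 against 3.66), the shares were 61.8% and 28.4%, and 1 gene was marked in the DMSO list alone. Joining within 1000 bp gave ratios of 1.28 for intervals and 4.03 for covered bases, and a share of 50.4% for EnPGC-1. With intervals of 500 bp or more the ratios were 3.27 and 4.70. The ratio of covered bases over the whole lists was then 5.4, larger than in the block, as with all intervals. The EnPGC-1 share was 26.2%, and 1 gene and 1 bin were marked in the DMSO or EnPGC-1 list alone, respectively. An overlap of 50% of both intervals gave 28.6% and 12.5%. A window of 2500 bp left 7 genes marked by EnPGC-1 alone, and bins of 25 kb showed 3 bins without a DMSO base. The cause of these shifts was not tested, apart from what each setting removes or widens by construction. Of 40 alternative values, 19 stayed within 1.5 times a count or within the counting interval. Depth is unknown here, so what it limits cannot be given.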
